A study of Gallus gallus with 8 samples.

Results

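The segment described here is chromosome Z of the chicken below 70 Mb, profiled for binding of Nrf2 in broiler liver. Its members are all peaks that start on Z before 70 Mb (galGal6) in the 8 deposited lists, 2916 of 66669 peaks. Peaks that overlapped or touched were merged across lists into 1425 regions, of 30246 regions in the whole genome (4.71%). The rule uses position alone, but the division at 70 Mb was proposed after the higher level of Z in one group was known.

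Nrf2 is a transcription factor that pairs with small Maf proteins at antioxidant response elements and switches on genes for detoxification and glutathione supply. Keap1 holds it in the cytoplasm and marks it for degradation until oxidants release it, and heat stress is a known source of oxidants in poultry. Z is the large sex chromosome of birds: males carry a pair of Z, females a Z and a W, and birds do not equalise the Z dose between the sexes across the whole chromosome.

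CUT&Tag, in which an antibody tethers a transposase that cuts and tags DNA near the bound protein, was applied to 8 liver samples, 4 titled PT and 4 titled HT. HT samples are labelled as kept at high temperature. For PT samples one label gives phloretin, an apple polyphenol, and another calls them normal, while a protocol field assigns heat to every sample, so what PT birds received is not stated here. The sources used here give neither strain, age nor sex of the broilers. Nor do the labels say whether samples came from separate birds, so each p-value measures the spread between these lists only, which may be technical.

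The PT lists held 5120 to 7302 peaks over the genome and the HT lists 9437 to 11141. The lists carry no read counts, so sequencing depth is unknown. Because a longer list has more peaks nearly everywhere, each count below is also given as a share of its list. On this segment the lists of a group shared many exact peak ends, so they may not be independent. In regions where 2 lists had 1 peak each, 58.0% to 78.7% of HT pairs' peaks and 52.8% to 69.7% of PT pairs' peaks had the same first and last base. Between the groups 0 peaks did, of 23 to 38 compared per pair. The exact permutation tests below assume independent lists, which these shared ends put in doubt.

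Over the whole segment the HT lists held more than 3 times as many peaks as the PT lists, and about 2 times as many after allowing for list length. The PT lists had 178, 127, 238 and 127 peaks there (lists 1 to 4). The HT lists had 498, 600, 505 and 643. No PT list came near an HT list: the highest PT count was 238 and the lowest HT count 498. The means were 561.5 ± 71.5 in HT and 167.5 ± 52.8 in PT (SD, n = 4 lists each), a ratio of 3.35. As a share of all peaks of the list, the segment took 5.07%, 5.59%, 5.35% and 5.77% in HT. In PT it took 2.74%, 2.48%, 3.26% and 1.91%. The mean shares of 5.45 ± 0.303% and 2.60 ± 0.560% gave a ratio of 2.10. Peaks covered 345 ± 37.9 kb of the segment in HT lists (0.493% of its bases) and 99.3 ± 29.9 kb in PT lists (0.142%), a ratio of 3.47. For all 3 measures the two-sided exact permutation p was 0.0286 (Benjamini-Hochberg adjusted p = 0.0333 over 7 measures), which no arrangement of 8 lists in groups of 4 can undercut. With the 5120 highest-scoring peaks of every list the counts were 258.75 ± 1.26 in HT and 135 ± 24.6 in PT, a ratio of 1.92 (exact permutation p = 0.0286, adjusted p = 0.04). The peaks kept covered 172 ± 9.05 kb in HT and 79.9 ± 13.2 kb in PT, a ratio of 2.16.

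The higher HT level did not extend equally to the large autosomes. In HT lists the segment held 8.02 ± 1.02 peaks per Mb, close to the 7.30 ± 0.745 per Mb of chromosomes 1 to 5. In PT lists it held 2.39 ± 0.754 peaks per Mb, below the 5.13 ± 0.903 per Mb of chromosomes 1 to 5. The density relative to chromosomes 1 to 5 was thus 1.03, 1.13, 1.11 and 1.12 in the HT lists and 0.496, 0.468, 0.570 and 0.326 in the PT lists. The groups did not overlap, and the mean difference was 0.632 (exact permutation p = 0.0286, adjusted 0.0333). It was 0.617 with equal list lengths and 0.492 with all numbered chromosomes as the baseline. Chromosome W went the other way, with 75 to 79 peaks in each PT list and 40 to 48 in each HT list. Sex is not labelled, and the part of sex or of any other difference between the samples in the Z level was not tested.

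**Figure D1:**
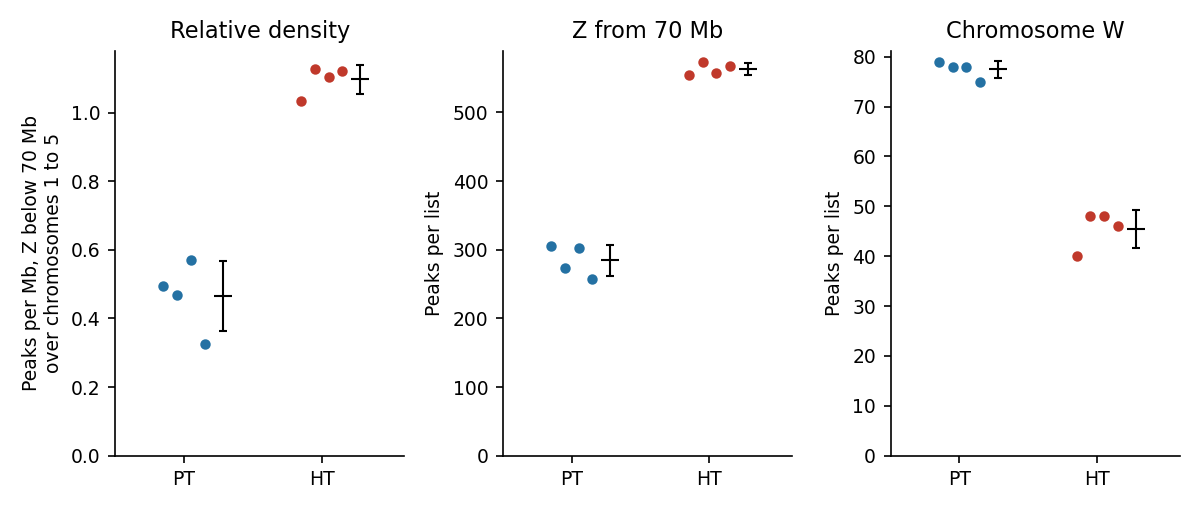
Each point is 1 list, with the group mean and SD in black. Left, peaks per Mb of Z below 70 Mb divided by peaks per Mb of chromosomes 1 to 5, where PT lists lie at 0.326 to 0.570 and HT lists at 1.03 to 1.13; middle, peaks per list on Z from 70 Mb; right, peaks per list on W, where PT lists are the higher.

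Within Z, the segment also differed from the distal end. The HT lists had 0.897 to 1.13 peaks below 70 Mb for each peak from 70 Mb on, and the PT lists 0.464 to 0.788. The mean ratios differed by 0.414 (exact permutation p = 0.0286, adjusted 0.0333). The division was proposed after the higher level of Z in one group was known, and the p-values do not allow for that. The difference was 0.0936 in the 50% of peaks with the highest scores (exact permutation p = 0.371) and 0.137 with equal list lengths (exact permutation p = 0.229). The exact permutation p was 0.0571 without HT list 1, 2, 3 or 4, the differences being 0.447, 0.397, 0.444 and 0.368. On either side of the division, the 5 Mb before 70 Mb held 56.75 ± 4.79 peaks in HT and 16.75 ± 7.14 in PT. The 5 Mb after it held 132 ± 3.83 and 62.5 ± 5.45. The ratio of list shares was 2.13 before the division and 1.30 after it.

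In 5 Mb bins, HT lists were above PT lists along the entire segment. In all 14 bins the lowest HT count exceeded the highest PT count, and every exact permutation p was 0.0286 (adjusted over 196 bins, 0.0491). These adjusted calls fell to 0 with equal list lengths, in the highest-scoring 50% of peaks, with bins shifted by 2.5 Mb, or without any 1 list other than PT list 3. All 14 stood at the smallest p the test allows, so their adjusted p depended on how many of the 196 bins reached it. Of all 196 bins tested on Z and the numbered chromosomes, 58.2% were called higher in HT by the same test on peak number. As a share of the list, the lowest HT value again exceeded the highest PT value in all 14 bins, against 17.9% of the 196 bins. On the numbered chromosomes this held in 20 of 180 bins, while in 39 every HT list was below every PT list. Adjusted over 196 bins, none of the share tests passed: the smallest exact permutation p was reached by 74 bins, which gave an adjusted p of 0.0757. With equal list lengths, or with the highest-scoring 50% of peaks, the lowest HT share exceeded the highest PT share in 10 of the 14 bins. How many of all 196 bins did so was not counted in these settings. Without any 1 list every HT share stayed above every PT share in all 14, but dropping a list cannot undo that order.

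**Figure D2:**
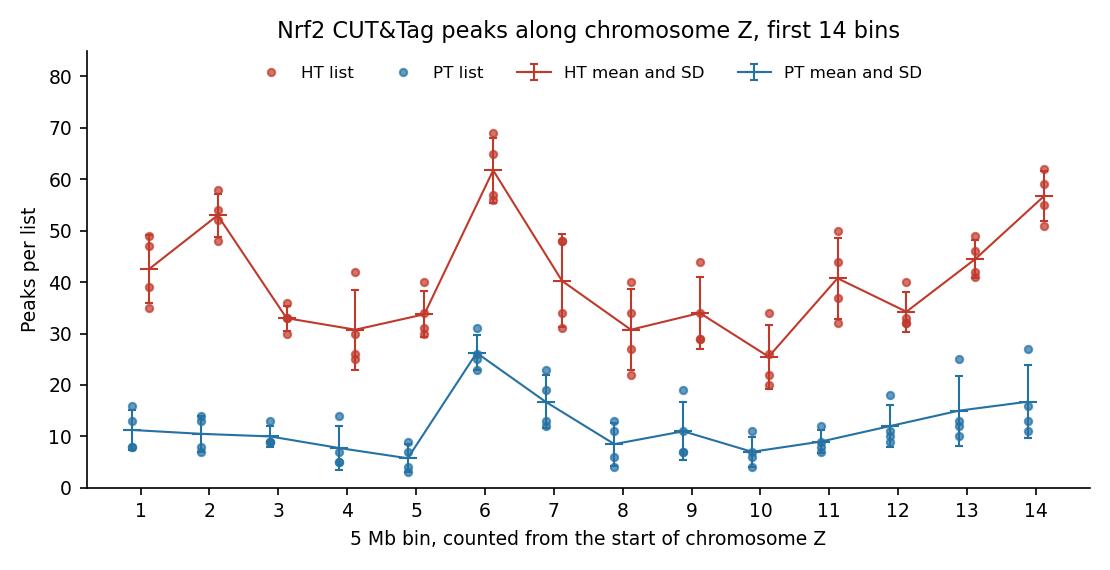
Peaks per list in the 14 bins of 5 Mb from the start of Z, with 1 point per list and lines through the group means ± SD. HT points lie above PT points in every bin, and both groups have their highest mean in bin 6 (25 to 30 Mb).

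The level varied along the segment in a partly similar way in both groups. The bin from 25 to 30 Mb was the fullest in each, with 56 to 69 peaks per HT list and 23 to 31 per PT list. The emptiest HT bin was 45 to 50 Mb, with 20 to 34 peaks per list. The emptiest PT bin was 20 to 25 Mb, with 3 to 9 peaks per list. From 65 to 70 Mb, next to the dense distal end, HT lists held 51 to 62 peaks, the second highest mean of the 14 bins. PT lists held 11 to 27 there, and their mean of 16.75 equalled that of 30 to 35 Mb. In covered length, the bin from 25 to 30 Mb held 58.6 ± 5.65 kb per HT list and 28.2 ± 5.77 kb per PT list. The bin from 45 to 50 Mb held 12.5 ± 3.30 kb and 3.09 ± 1.47 kb.

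The ratio of HT to PT rose and fell along the segment, from 1.45 to 3.70. Corrected for list length, the median ratio over the 14 bins was 2.18, against 0.938 over the 180 bins of the numbered chromosomes. None of those 180 bins exceeded the median of the Z bins. The highest ratio, 3.70, was in 20 to 25 Mb. There the HT lists had 30, 40, 31 and 34 peaks and the PT lists 7, 4, 9 and 3. This maximum came with a low PT count and not a high HT count: of the 14 bins, its HT mean of 33.75 ranked 10 and its PT mean of 5.75 ranked 14. Next came 5 to 10 Mb with a ratio of 3.18. There the HT lists had 48, 52, 54 and 58 peaks and the PT lists 13, 7, 14 and 8, and the HT mean of 53 was the third highest. The third highest was 50 to 55 Mb, with a ratio of 2.79 and 40.75 ± 7.89 against 9 ± 2.16 peaks. These 3 were also the highest ratios among all 196 bins. The highest on a numbered chromosome was 1.97, in the first 5 Mb of chromosome 21, which ranked 10. With equal list lengths the bin from 5 to 10 Mb was the highest instead, at 2.94 against 2.77 for 20 to 25 Mb. In the other 10 alternatives run for this ratio, 20 to 25 Mb stayed the highest, at 3.16 to 4.26.

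The lowest ratios lay from 25 to 35 Mb, with values of 1.45 and 1.50, and 8 bins of numbered chromosomes were above the lower of these. In the highest-scoring 50% of peaks the lowest bin was 45 to 50 Mb instead, at 1.28, against 1.34 for 25 to 30 Mb. From 25 to 35 Mb, the ratios by Mb were lowest in 3 stretches, picked after their values were seen. From 25 to 26 Mb the groups overlapped, with 6 to 8 peaks in HT and 4 to 6 in PT, and the ratio corrected for list length was 0.879. From 27 to 28 Mb, HT lists had 29, 24, 27 and 28 peaks and PT lists 15, 16, 17 and 17, and the corrected ratio was 1.02. Without the Mb from 27, the bin from 25 to 30 Mb held 34.75 peaks per HT list and 10 per PT list, a corrected ratio of 2.17. From 34 to 35 Mb the groups again overlapped, with 8 to 12 peaks in HT and 8 to 10 in PT, and the corrected ratio was 0.654.

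**Figure D3:**
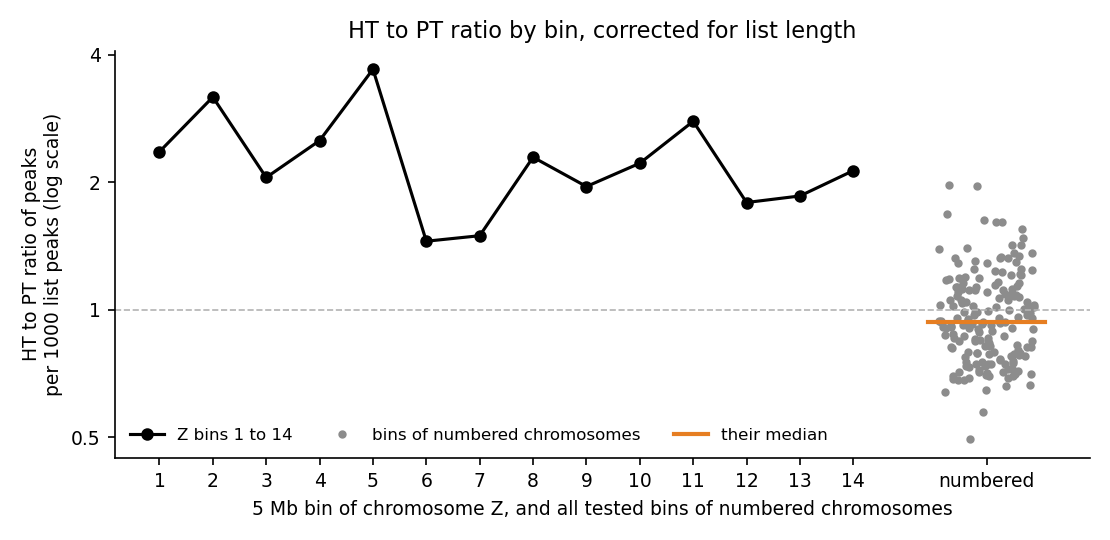
HT to PT ratio of peaks per 1000 peaks of the list, on a log scale, for the 14 bins of 5 Mb on Z (black) and the 180 tested bins of numbered chromosomes (grey, spread sideways for legibility, median 0.938 in orange). The Z bins run from 1.45 in bin 6 to 3.70 in bin 5.

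At a resolution of 1 Mb the mean count was higher in HT in all 70 bins. In 48 of these every HT list exceeded every PT list, and in the other 22 the groups overlapped. These counts are not corrected for list length, and 1 Mb bins of other chromosomes were not counted. Corrected for list length, the ratio was below 1 in the Mb from 25, 34, 41 and 62 (0.879, 0.654, 0.783 and 0.831). At least 1 PT list had 0 peaks in 28 bins, while each HT list had a peak in every one of the 70. The median bin held 7.125 peaks per HT list and 2 per PT list. Against this level a few bins stood out, and they were picked here after their values were seen. From 8 to 9 Mb, HT lists had 19, 19, 19 and 20 peaks and PT lists 3, 3, 4 and 3. From 68 to 69 Mb, HT lists had 25, 26, 28 and 26 and PT lists 9, 7, 8 and 7. In the bin with the highest overall ratio, the Mb from 20 had 7, 7, 8 and 9 HT peaks and a single PT peak, in list 3. The Mb from 21 differed, with 6, 7, 7 and 3 HT peaks and 4, 2, 5 and 2 PT peaks, an overlap of the groups at a corrected ratio of 1.14. The Mb from 23 had 8, 9, 8 and 12 HT peaks and 1, 0, 1 and 0 PT peaks. From 6 to 7 Mb the 4 PT lists had 0 peaks and the HT lists 5 or 6.

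**Figure D4:**
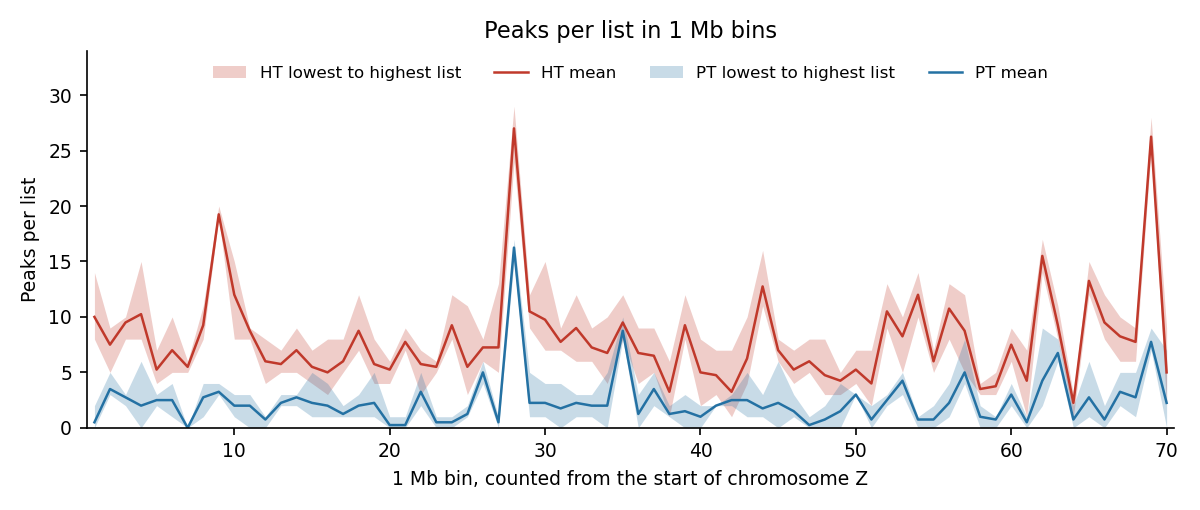
Peaks per list in 1 Mb bins from the start of Z: lines are group means, and shaded bands run from the lowest to the highest list. The HT line has its highest points in bins 28, 69 and 9 (27 to 28, 68 to 69 and 8 to 9 Mb), whereas the PT line rises mainly in bins 28, 35 and 69.

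The bins from 8, 27 and 68 Mb each hold a dense run of regions. Regions found in all 4 lists of a group were chained where neighbours lay within 50 kb, which gave 220 runs, of which 168 were single regions and 3 had at least 10. Of the 329 regions chained on the segment, 247 were in every HT list and no PT list. Another 44 were in every PT list and no HT list, and 14 in all 8 lists. Runs outside the segment were not counted, so such runs may not be particular to it. The longest run of the segment, Z:27144927-27341945, held 18 regions in 197 kb, with a median gap of 8.38 kb. It was mixed. All 4 HT lists held 11 of its regions and all 4 PT lists 11, with 4 in all 8 lists, 5 in the HT lists alone and 3 in the PT lists alone. It contained 20, 17, 19 and 18 peaks of the HT lists and 13, 14, 14 and 16 of the PT lists. The next, Z:68134768-68307085, held 16 regions, 12 of them in every HT list and no PT list. HT lists had 14 to 16 peaks in it and PT lists 4 or 5. The third, Z:8375888-8482015, held 12 regions in 106 kb, 11 of them in every HT list and no PT list. HT lists had 12 or 13 peaks there and PT lists 1 or 2. The 34 to 35 Mb bin was mixed too. There Z:34292483-34354378 held 5 regions, 3 of them HT-only and 2 PT-only, and Z:34404389-34430521 held 3 regions of 3894 to 4999 bp, all in all 8 lists. Over the entire segment, runs included, the median gap was 157 kb between regions of all 4 HT lists and 496 kb between those of all 4 PT lists. Which genes lie at these positions was not analysed here, since no galGal6 annotation was at hand.

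Over the whole segment, median peak width differed little between the groups. The median peak on the segment was 509.5, 504, 509 and 502 bp wide in the HT lists and 489, 494, 496.5 and 496 bp in the PT lists. The mean difference was 12.25 bp (exact permutation p = 0.0286, adjusted 0.0333), but it depended on the peaks counted. It was 2.13 bp without peaks under 260 bp (exact permutation p = 0.457), -4.88 bp in the highest-scoring 50% and -19.1 bp with equal list lengths. Below 60 Mb it was -3 bp. Peaks under 260 bp made up 3.94% to 7.87% of PT peaks on the segment and 2.80% to 4.55% of HT peaks. By bin, the mean of the list medians was wider in HT in 7 of 14 bins. The groups were apart in 5: HT was wider in 45 to 50 and 60 to 65 Mb, and narrower in 20 to 25, 40 to 45 and 50 to 55 Mb. From 60 to 65 Mb the medians were 541 to 546.5 bp in HT and 382.5 to 429 bp in PT, and from 20 to 25 Mb 437 to 449.5 bp and 458 to 534 bp. The PT medians of the latter bin rest on 7, 4, 9 and 3 peaks. Widths by bin are given as descriptions. Neither bins with wider means in HT nor bins with the groups apart in width were counted on the numbered chromosomes.

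The score that the authors' caller gave each peak was summarised as a rank within its own list. Raw scores are printed only for named regions. The median percentile of the segment's peaks among all peaks of their list was 49.6, 45.4, 46.9 and 48.0 in the HT lists. In the PT lists it was 56.7, 52.4, 48.2 and 56.3. PT list 3 fell within the HT range, and the difference of -5.90 points did not pass (exact permutation p = 0.0571, adjusted 0.0571). Without PT list 3, which has the most peaks of the PT lists and is the one within the HT range, it was -7.63 points (exact permutation p = 0.0286). Without any other 1 list it was -6.60 to -4.81 points and did not pass (exact permutation p = 0.0571 to 0.114). With equal list lengths and percentiles of the full lists the sign turned, to 12.3 points (exact permutation p = 0.0286), as only the upper part of the longer HT lists is then kept. Ranked anew among the kept peaks, a choice made after that value was seen, it was -5.23 points (exact permutation p = 0.0286). Scores above percentile 90 of the list belonged to 9.90 ± 1.45% of a PT list's peaks on the segment and 6.20 ± 0.777% of an HT list's. By bin, the mean percentile was lower in HT in 12 of 14. The groups were apart in 5 bins, with HT lower in 0 to 5, 15 to 20, 45 to 50 and 60 to 65 Mb and higher in 30 to 35 Mb. From 45 to 50 Mb the means were 33.2 ± 6.34 in HT and 71.5 ± 13.9 in PT. From 30 to 35 Mb they were 58.4 ± 5.76 and 40.2 ± 7.50. These values by bin are descriptions, with few PT peaks behind each. On the numbered chromosomes, neither bins with a lower mean percentile in HT nor bins with the groups apart were counted.

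Few positions were shared between the groups, on the segment as in the genome. Of the 1425 regions, 1048 (73.5%) were found in HT lists alone, against 57% of all regions in the genome. PT lists alone held 311 (21.8%), against 36.2%, and 66 (4.63%) were in both, against 6.81%. A single list accounted for 826 (58.0%), of which 597 came from an HT list and 229 from a PT list. The complete HT set without any PT list accounted for 247 regions (17.3%), against 14% of all regions in the genome (4234 of 30246). The complete PT set without any HT list accounted for 44 (3.09%), against 6.83%. All 8 lists held 14 (0.982%), against 2.41%. Counts of this kind can change with the number of peaks. With equal list lengths there were 85 HT-only, 39 PT-only and 10 common regions. The shares over the genome were not computed for that setting. The Jaccard index, bases covered by both lists over bases covered by either, averaged 0.453 within HT (0.400 to 0.576), 0.396 within PT (0.291 to 0.501) and 0.0672 between the groups (0.0578 to 0.0786). Over the whole genome the means were 0.490, 0.468 and 0.110.

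**Figure D5:**
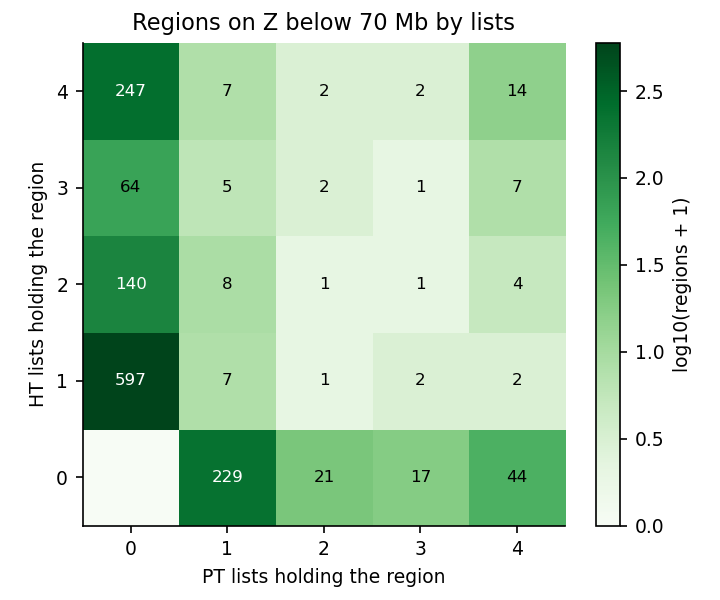
Number of merged regions on Z below 70 Mb by how many HT lists (vertical) and PT lists (horizontal) held them, coloured by log10(regions + 1). Most regions lie along the edges, found in 1 group alone, with 247 in the 4 HT lists alone, 44 in the 4 PT lists alone and 14 in all 8.

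Sharing was lopsided. Among 272 regions present throughout HT, 25 (9.19%) had a PT peak, whereas among 71 present throughout PT, 27 (38.0%) had an HT peak. On chromosomes 1 to 5 the same percentages were 16.1% and 23.5%. From 70 Mb on they were 31.8% and 54.2%. On the segment the shared numbers, 25 and 27, were close, and the percentages differ through the totals of 272 and 71. These percentages were not computed with equal list lengths. Regions found in all 4 lists of a group ranked above those of a single list. The median score percentile was 56.2 for HT-only and 59.9 for PT-only regions, against 37.9 and 43.1 for regions of a single HT or PT list. These medians were not computed over the genome, so the order may not be particular to the segment. Both ends of a peak coincided in 2 or more lists in 240 HT-only and 43 PT-only regions, which left 7 and 1 with no shared ends. They coincided in 4 lists in 128 and 27. The HT-only regions were spread over all 14 bins, 11 to 27 in each, and the PT-only regions 1 to 7 in each. The 14 common regions were in 6 of the bins, 6 of them in 25 to 30 Mb and 4 in 30 to 35 Mb.

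By mean score percentile, 10 HT-only regions were singled out, led by Z:28502976-28503211. It spanned 236 bp, with scores of 210.84, 228.28, 245.03 and 152.46 in HT lists 1 to 4 and no PT peak. It was the highest-scoring peak of the segment in HT lists 1, 2 and 3. The region Z:31323790-31324371 spanned 582 bp, with scores of 121.25 to 145.9 and the same ends in all 4 lists. It was followed by Z:40800546-40801070 (scores 109.12 to 128.69), Z:53186826-53187035 (99.25 to 115.8) and Z:52900665-52902290 (87.66 to 110.46). The others were Z:8462830-8464888, Z:19448373-19448790, Z:34292483-34297428, Z:68151639-68152446 and Z:68268043-68269018. Of these 10, 3 belong to the dense runs near 8 and 68 Mb, 2 were under 260 bp wide, and 5 had the same ends in all 4 lists.

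By the same ranking, the leading 10 PT-only regions were 251 to 684 bp wide, 7 of them at most 379 bp. Z:59603880-59604151, spanning 272 bp, came first and had scores of 423.59, 423.59, 412.44 and 423.59 in PT lists 1 to 4 and no HT peak. It was the highest-scoring peak of the segment in each PT list. Next were Z:68491711-68491961 (scores 184.09 to 197.03) and Z:49801130-49801380 (165.88 to 189.18), both 251 bp wide. Then came Z:64525627-64526310 (131.4 to 146.92), Z:62650374-62650966 (108.13 to 151.27) and Z:1664601-1664979 (99.37 to 162.42). In 7 of the 10 regions all 4 lists gave the same ends. The handling of duplicate reads is not stated, and no order of binding strength is read from these scores.

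The 10 highest-ranking common regions each merged peaks of 8 lists and were 715 to 7683 bp wide. At their head, Z:25662427-25668173 spanned 5747 bp and had scores of 136 to 179.9 in PT and 117.31 to 135.32 in HT. Its within-list percentiles overlapped, at 96.1 to 97.9 in PT and 96.2 to 97.0 in HT. Its neighbour Z:25679658-25687340, the widest region of the segment, had scores of 108.25 to 143.35 in PT and 44.75 to 71.39 in HT. The percentiles there were 92.8 to 96.7 in PT and 25.4 to 81.2 in HT. In the run from Z:34404389 both scores and within-list percentiles were higher in every HT list than in any PT list. Z:34404389-34409196 had scores of 203.49 to 237.44 in HT and 70.85 to 105.24 in PT, and was the highest-scoring peak of the segment in HT list 4. Z:34410012-34415010 had 122.57 to 145.15 and 71.79 to 78.34, and Z:34426628-34430521 had 146.17 to 159.87 and 47.8 to 68.01. Scores are as the caller wrote them and their scale may differ between lists. In Z:27209749-27210463, inside the mixed run at 27 Mb, scores were 66.5 to 78.44 in PT and 68.25 to 77.76 in HT.

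In the bin from 20 to 25 Mb, where the ratio was highest, 18 of 81 regions were in every HT list and no PT list and 2 in every PT list and no HT list. For HT-only regions the neighbouring bins had 17 of 81 (15 to 20 Mb) and 23 of 139 (25 to 30 Mb). The HT-only share was 17.3% over the segment and 14% over the genome, and the PT-only share 3.09% and 6.83%. The 10 highest-ranking HT-only regions from 20 to 25 Mb were 287 to 750 bp wide and had mean score percentiles of 56.7 to 85.2. None of them was among the 10 leading HT-only regions of the segment. First were Z:23991645-23992394 (scores 63.65 to 87.43), Z:21344825-21345111 (69.28 to 77.88) and Z:23207573-23207885 (62.78 to 66.09). They lay apart from each other and formed no dense run.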

How the data were processed

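Each of the 8 samples has 1 peak list. Per the submitters' processing notes, the reads went through cutadapt 1.9.2 and Bowtie2 2.2.4, with galGal6 as the build. The deposited lists have 5 columns and no header: chromosome, start, end, a peak name beginning with MACS, and the score the authors' caller gave, from 40 to 3100 on an unstated scale. The sources used here do not give the caller's settings, controls or duplicate treatment, nor whether each list was called on its own reads.

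Groups and replicate numbers came from the titles. Starts were raised by 1 for printing. A region counted for each list with a peak in it, by 1 bp or more. Peaks were binned by start. Bins of 5 Mb were tested where they lay below the last peak of the chromosome and averaged at least 5 peaks per list. Chromosome lengths were taken as the end of the last peak. Group means were compared by exact permutation tests, with Benjamini-Hochberg adjustment over 7 measures or 196 bins and a threshold of 0.05. Named regions were the 10 of each kind, and of the bin with the highest ratio, with the highest mean score percentile, and the highest-scoring peak of each list.

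The segment, measures and rules were chosen with earlier results of these data known. Alternatives were each list's highest-scoring 50%, equal list lengths (5120 peaks), no peaks under 260 bp, other denominators, bins and merging, a replicate block and leaving out each list. Other boundaries, the bin without 27 to 28 Mb, regions without shared ends and a new ranking within equal list lengths were added after the data were seen. The code was tested on simulated lists. The tools were pandas 2.3.3 and numpy 2.4.6 under Python 3.11.15, and matplotlib 3.10.9 for plots.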

Additional observations from a re-analysis of the deposited data

Results flagged for a closer look

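In 42 groups of 4 values (7 measures and 14 bins, for HT and PT each), Dixon's test marked 2, where chance marks about 1 in 20. From 10 to 15 Mb, PT list 3 had 13 peaks and the other PT lists 9 each. From 55 to 60 Mb, HT list 4 had 40 peaks and the other HT lists 32 or 33. Both are the longest list of their group. No other explanation was looked at, and the part of list length was not tested.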

How the results depend on the processing

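Of 210 alternative values, 170 had the sign and call of the reported value or, for counts and ratios, stayed near it. Most leave out 1 list, which tests little while peak ends are shared. Where the groups did not overlap, leaving out a list cannot turn the sign, so that part was fixed in advance. The exceptions to the 170 follow, and their causes were not tested unless the setting gives them. In the highest-scoring 50% of each list the difference in median width turned to -4.88 bp, the difference in ratio to distal Z fell to 0.0936, and there were 0 Z bins with an adjusted call on peak number, a ratio of 1.34 for 25 to 30 Mb with the lowest bin at 45 to 50 Mb (1.28), 100 HT-only, 23 PT-only and 7 common regions. With equal list lengths the values were -19.1 bp, 0.137, 0 bins, 1.30 for 25 to 30 Mb and 85 HT-only regions, and the score percentile turned to 12.3 points with percentiles of the full lists, which follows from keeping only the upper part of the longer HT lists. Ranked anew among the kept peaks it was -5.23 points and passed the threshold. This ranking was added after the 12.3 had been seen. The width difference was 2.13 bp without peaks under 260 bp and -3 bp below 60 Mb. Without 27 to 28 Mb the ratio of 25 to 30 Mb was 2.17. Bins shifted by 2.5 Mb gave 0 adjusted calls on peak number, against 14. Leaving out 1 list gave 0 or 14 such calls, with 14 only without PT list 3. It gave differences of 0.368 to 0.483 in the ratio to distal Z and -7.63 to -4.81 points in the score percentile. A 50% cover left 4 common regions, and asking for no shared peak ends left 7 HT-only, 1 PT-only and 1 common.

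With the replicate block the differences stayed at 394 peaks, 2.85 points of list share, 246 kb, 12.25 bp, 0.632 in relative density and 0.414 in the ratio to distal Z. All had p = 0.125, and 4 pairs allow nothing smaller in a permutation of signs (exact). Whether same-numbered lists were handled as pairs is not known, and bin values cannot decide it. Over 196 bins, deviations of same-numbered lists correlated at -0.0184, -0.235, -0.315 and 0.321. For 1 of 4 PT lists the closest HT list had the same number. Read depth is unknown, and no gene, promoter or motif was placed.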
